A study of Homo sapiens with 54 samples.

Results

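PEA2 is an established high-grade serous ovarian cancer line that the labels call platinum resistant, the partner of the platinum-sensitive line PEA1. The comparison described here sets the 3 PEA2 cultures given 80 µM carboplatin for 8 h against 3 untreated PEA2 cultures, 6 of the 54 RNA-sequencing libraries of the series, which holds 6 such lines, each untreated and after 8 h and 24 h of carboplatin with 3 libraries a group. The members were chosen by their labels alone, and the comparison was repeated without libraries listing fewer than 12000 genes above 0 TPM, which left 5 of the 6. All cultures were grown in RPMI medium with fetal bovine serum before treatment, and carboplatin was the agent in every treated group. The control samples are labelled untreated, while the series text speaks of a vehicle control harvested at 24 h, so their harvest time was not settled from the labels. The dose unit follows the treatment protocol; elsewhere the submitters wrote mM with an equal number, so the unit is uncertain. All libraries come from a single line. The 8 h cultures were at passages 25, 26 and 27 and the untreated cultures at passages 23, 24 and 24, so that passage and treatment cannot be told apart.

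Carboplatin forms platinum adducts and cross-links on DNA, which stall replication forks and RNA polymerase and are removed by nucleotide excision repair or bypassed and repaired through the Fanconi and homologous recombination pathways. In cells with working p53 the damage is known to raise p53 target genes, and genotoxic stress can also switch on NF-kB and its cytokine targets. Resistant lines such as PEA2 are used to ask how tumor cells respond to a dose of the drug that they survive.

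RNA was made into libraries with a stranded total RNA kit, and levels were deposited as TPM, a unit scaled for transcript length and for the library's total. Here the TPM were rescaled by the median ratio to a common reference and are called rescaled TPM, a change is the difference of mean log2(rescaled TPM + 1), and a gene is called where its limma adjusted p is under 0.05. The pseudocount makes the changes of low genes look smaller than they are. The 9-library fit uses all untreated, 8 h and 24 h PEA2 libraries, and the 8-library fit leaves out 8 h replicate 2.

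The 8 h replicate 2 library stood apart, with 9274 genes above 0 TPM, against 14678 and 15201 in 8 h replicates 1 and 3 and between 15266 and 15691 in the untreated libraries. The 24 h libraries had between 14252 and 14948, so every treated library listed fewer genes than every untreated one. The number of reads behind each library was not given in the sources used here. Epithelial markers fitted the label: EPCAM was between 110.0 and 180.6 rescaled TPM over the 9 libraries, and KRT7, KRT8, KRT18 and CDH1 were above 10 in all of them. Of the Müllerian markers PAX8, SOX17 and WFDC2 were also above 10 in all 9, while MSLN reached 10 in 4, MUC16 in 3 and WT1, at 0 to 3.75, in 0. Of markers of other cells, CD3D, CD3E, LYZ, DCN, LUM and PDGFRA were at 0 in all 9 libraries. The leukocyte marker CD68 was between 13.3 and 31.2 in all of them, PTPRC and CD14 were above 0 in 7 and below 10 throughout, and CDH5, otherwise an endothelial cadherin, was between 142.2 and 215.1. The 12 leukocyte markers summed to between 14.2 and 31.1 TPM at 8 h and between 39.0 and 60.7 TPM in untreated cells, and the 10 fibroblast markers to between 0.25 and 1.89 TPM at 8 h and between 9.57 and 11.7 TPM in untreated cells. These sums moved with the changes below, and their part in them was not tested.

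The make-up of the libraries also differed between the groups. Ribosomal protein genes took 19.2%, 19.1% and 22.6% of all TPM at 8 h, against 13.8%, 13.8% and 13.1% in untreated cells. Olfactory receptor genes, normally active in the nose, were above 0 TPM for 10, 2 and 14 genes at 8 h, against 33, 36 and 49 genes in untreated cells. In both measures the groups did not overlap, and the 24 h libraries, with 19.9% to 21.6% and 13 to 16 genes, lay with the 8 h libraries.

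**Figure D1:**
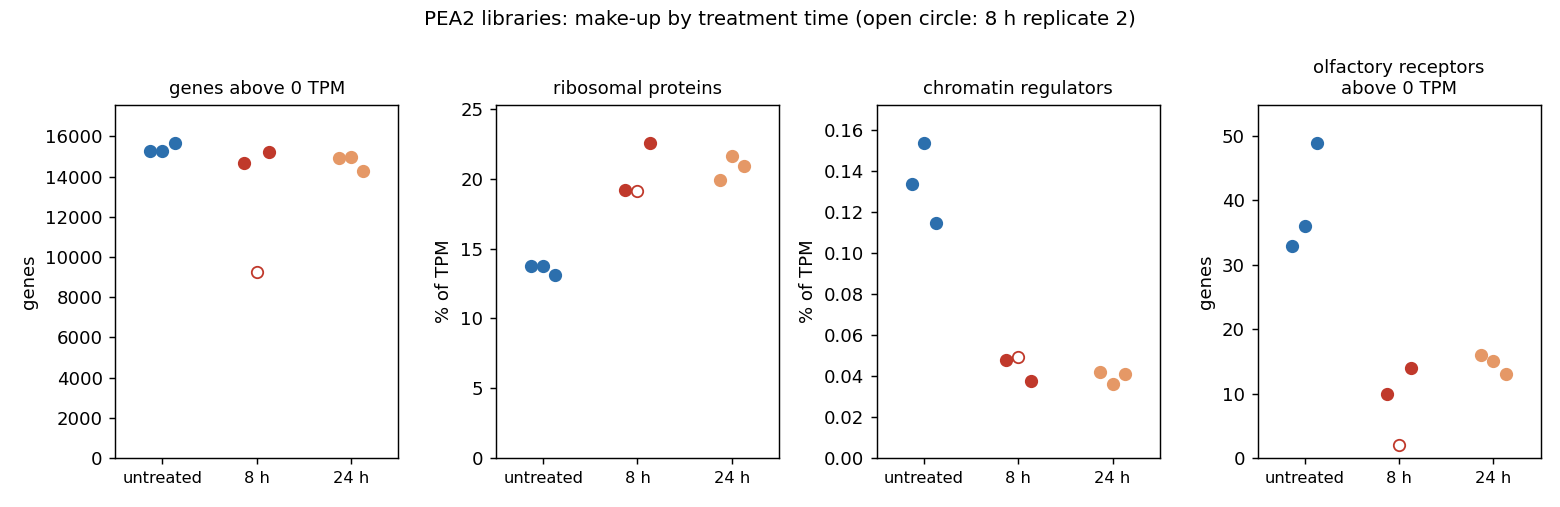
Make-up of the 9 PEA2 libraries by treatment time: genes above 0 TPM, the share of all TPM taken by cytosolic ribosomal protein genes and by chromatin regulator genes (%), and the number of olfactory receptor genes above 0 TPM. Each circle is 1 library, and the open circle is 8 h replicate 2, at 9274 genes. The 8 h and 24 h libraries lie on the same side of the untreated ones in every panel.

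Carboplatin for 8 h was accompanied by a broad shift of the PEA2 transcriptome in which more genes were lower than higher. Short, abundant messages of the ribosome and of mitochondrial energy production were higher, as were several cytokine, chaperone and replication genes. Most chromatin regulators were lower, as were some nuclear noncoding RNAs, MALAT1 and NEAT1 among them, and many noncoding genes and genes embedded in others on the opposite strand. In the 9-library fit 837 of 15064 genes tested (5.56%) were higher and 2555 (17%) lower, 22.5% in all, and without replicate 2 of the 8 h group 1833 of 15044 (12.2%) were higher and 2668 (17.7%) lower, 29.9% in all. Both fits called 3057 genes, 832 higher and 2225 lower, and called no gene in opposite directions. Without untreated replicate 1, 2 or 3, 540, 443 and 488 genes were higher and 1985, 1846 and 1756 lower. A fit of all 54 libraries of the series, whose spread includes the other lines, called 17 higher and 562 lower and none of the ribosomal protein or oxidative phosphorylation genes described below.

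The balance of rises and falls depends on the scaling. Genes called higher made up 24.7% of calls in the 9-library fit and 40.7% in the 8-library fit. With TPM as deposited the share was 10.2% with 9 libraries and 13.6% with 8, and with rescaling to the total of genes other than structural RNAs, histones and ribosomal proteins it was 19.5% and 25.4%. The median change of all genes tested was -0.41 in the 9-library fit, -0.07 in the 8-library fit and -0.63 with TPM as deposited, and the lists below are read against the first 2 of these.

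The leading rises encode proteins of several kinds. PSENEN, a subunit of the gamma-secretase protease, had 20.6, 39.3 and 27 rescaled TPM at 8 h, against 5.25, 1.85 and 1.02 in untreated cells, a log2 change of 3.14 (SE 0.47, adjusted p = 0.00252) in the 9-library fit and 2.99 in the 8-library fit. MGST3, a microsomal enzyme that detoxifies lipid peroxides with glutathione, had 17.3, 69.5 and 27.3 at 8 h and 2.54, 3.60 and 7.44 in untreated cells, a log2 change of 2.68 (SE 0.53, adjusted p = 0.00788). C15orf48, a mitochondrial protein of inflamed epithelia, was the most abundant of the 15 leading rises, with 170.4, 309 and 432 rescaled TPM at 8 h and 39.5, 106.1 and 39.5 in untreated cells. In each of these genes all 3 libraries at 8 h lay above all 3 untreated libraries, as they did in 10.7% of all genes tested; the choice of the 15 required this of 8 h replicates 1 and 3.

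S100A9, a subunit of the neutrophil protein calprotectin, had 22.0, 36.4 and 40.7 rescaled TPM at 8 h and 7.77, 2.72 and 4.50 in untreated cells (log2 change 2.55, adjusted p = 0.0135). CASP1, the protease that matures interleukin 1 beta, had 11, 36.4 and 18.7 at 8 h and 7.40, 3.14 and 1.73 in untreated cells (log2 change 2.18, adjusted p = 0.0260). KYNU, kynureninase of the tryptophan breakdown pathway, had 20.2, 34.9 and 29.5 at 8 h and 10.6, 7.53 and 1.34 in untreated cells (log2 change 2.21, adjusted p = 0.0237). DNAJB4, a heat shock co-chaperone, had 18.4, 14.0 and 24.8 at 8 h and 8.38, 1.19 and 1.31 in untreated cells (log2 change 2.44, adjusted p = 0.0165). The untreated values of KYNU, CASP1 and DNAJB4 spread over several-fold.

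TMEM54 had 6.35, 28.9 and 5.77 rescaled TPM at 8 h, against 0, 0 and 0.792 in untreated cells, so that its change rests on values near the lower end of detection in untreated cells. NXT2, a cofactor of messenger RNA export, had 8.95, 12.1 and 22.3 at 8 h and 3.62, 0.511 and 1.13 in untreated cells. The other leading rises were TSTD1, ABRACL, COMMD6, TM2D1, TRMT61B and GMFB, a glia maturation factor that acts on actin branches, with log2 changes between 2.01 and 3.03 in the 9-library fit. All 15 were called in both fits, which the choice of these genes required too.

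**Figure D2:**
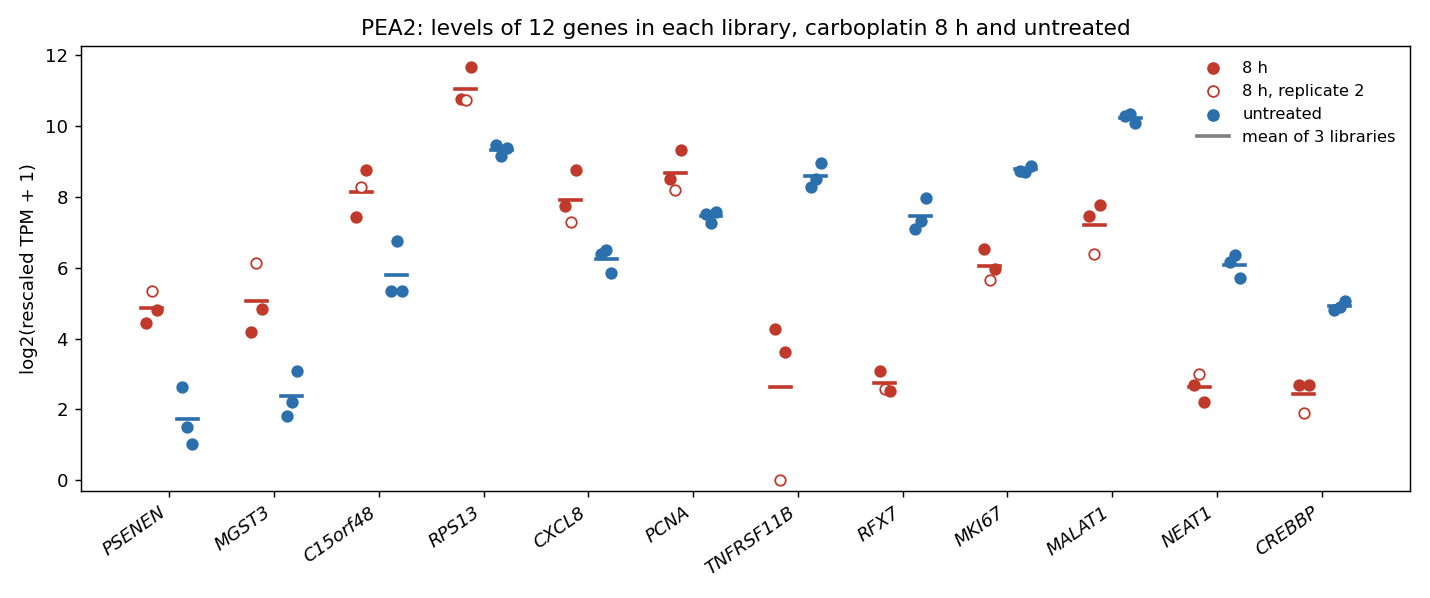
Levels of 12 genes in each PEA2 library, as log2(rescaled TPM + 1), at 8 h (red, left of each pair) and untreated (blue, right); bars are means of 3 libraries and the open circle is 8 h replicate 2. The 6 genes on the left lie higher at 8 h and the 6 on the right lower, with no overlap between the groups; TNFRSF11B is at 0 in the open circle.

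The leading falls were larger on the log2 scale than the leading rises. TNFRSF11B, which encodes the secreted decoy receptor osteoprotegerin, had 18.4, 0 and 11.4 rescaled TPM at 8 h, against 310.2, 364 and 493 in untreated cells, a log2 change of -5.94 (SE 0.96, adjusted p = 0.00357) in the 9-library fit and -4.51 (SE 0.46, adjusted p = 0.000472) in the 8-library fit. RFX7, a transcription factor, had 7.52, 5.01 and 4.77 at 8 h and 137, 158 and 249 in untreated cells, a log2 change of -4.73 (SE 0.37, adjusted p = 0.00046). TSHZ2, a zinc finger homeobox factor, had 0.408, 0 and 1.17 at 8 h and 29.2, 48.8 and 39.4 in untreated cells. No value at 8 h came near the untreated range in any of the 3, and all 3 libraries at 8 h lay below all untreated libraries in 27.8% of all genes tested.

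COX7A1, the heart and muscle form of a cytochrome c oxidase subunit, was listed at 0 in all 3 libraries at 8 h and at 35.9, 33.1 and 17.2 rescaled TPM in untreated cells. Its direction was opposite to that of the oxidative phosphorylation genes described below, but it was fixed by the filter. PPP1R17, a protein phosphatase inhibitor known from cerebellar Purkinje cells, had 0.551, 0 and 0.269 at 8 h and 27.3, 30.5 and 64.0 in untreated cells. TPPP, a tubulin-binding protein known from oligodendrocytes, had 3.95, 0 and 1.96 at 8 h and 65.0, 68.0 and 98.5 in untreated cells. CEND1, a neuronal cell cycle exit protein, had 2.43, 0 and 0.303 at 8 h and 46.5, 50.2 and 54.6 in untreated cells. All 4 were below 4 rescaled TPM at 8 h and above 17 in every untreated library. COX7A1 and PPP1R17 reached the filter of 1 TPM in 2 or more libraries only with the untreated libraries, so they could only be called lower.

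Of the rest, CDHR5, an intestinal protocadherin, had 0.337, 0.427 and 0.168 rescaled TPM at 8 h and 32.5, 30.3 and 39.0 in untreated cells. It too reached the filter only with the untreated libraries. The remaining falls were TMEM75, LINC00645, YPEL4, KRTAP5-1, SLFNL1, CD302 and MXRA8, with log2 changes between -5.56 and -4.66 in the 9-library fit. All 7 were listed at 0 in the 8 h replicate 2 library, and without it their changes were between -4.64 and -3.70. The 15 falls were reached after passing over 84 higher-ranked genes that were antisense, near-identical copies, pseudogenes or without a match in the annotation, against 10 genes passed over for the rises. KRTAP5-1 belongs to a family of similar genes, so its reads may be shared.

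Ribosomal protein genes, which encode the structural proteins of the cytosolic ribosome, were mostly higher. All 79 members were tested, 67 were higher and 0 lower in the 8-library fit, and 59 were higher and 0 lower in the 9-library fit. Their median log2 change was 1.01 with 8 libraries, where all genes had -0.07, and 0.78 with 9 libraries, where all genes had -0.41. It stayed positive under the other scalings tried, at 0.51 or more. Changes ran from 0.11 to 2.16 in the 8-library fit, and RPL3, RPL8, RPS2 and RPS19 were among the 12 that did not pass. Without untreated replicate 1 or 2, 36 and 37 of them were called, all higher, and in the fit of the 42 libraries of the series with at least 12000 genes 18. Ribosomal proteins have many processed pseudogenes, so the split of their reads is uncertain.

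RPS13 had 1729, 1691 and 3279 rescaled TPM at 8 h, against 703, 570.5 and 663 in untreated cells, a log2 change of 1.72 (SE 0.31, adjusted p = 0.00533) in the 9-library fit. RPS3A had 1944, 1401 and 3842 at 8 h and 935, 903 and 871 in untreated cells, a log2 change of 1.28 (SE 0.32, adjusted p = 0.0217). RPL39 had 3723, 2607 and 7080 at 8 h and 1840, 1794 and 1594 in untreated cells. In all of these the 8 h replicate 3 library was the highest by far, and replicates 1 and 2 still lay above every untreated library.

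Messages of ribosomal proteins are known to begin with a run of pyrimidines that couples their translation to growth signals, and the stretches around the annotated starts of 5 ribosomal protein genes that rose and 2 chromatin regulators that fell are shown for that reason, with and without the letters searched. Each line runs 15 bases before the start to 15 bases from it, 5′ to 3′ on the gene's strand, from RefSeq on GRCh38.p14, with CTTT in capitals. The positions are RPS13 at chr11:17077653-17077682 on the minus strand, RPS3A at chr4:151099613-151099642 on the plus strand, RPL39 at chrX:119791616-119791645 on the minus strand, RPS29 at chr14:49598696-49598725 on the minus strand and RPS27A at chr2:55231888-55231917 on the plus strand. The chromatin regulators are KMT2D at chr12:49060780-49060809 and CREBBP at chr16:3880699-3880728, both on the minus strand.
RPS13: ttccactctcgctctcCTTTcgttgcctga
RPS3A: cgactcccacttccgccCTTTtggctctct
RPL39: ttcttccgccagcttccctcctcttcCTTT
RPS29: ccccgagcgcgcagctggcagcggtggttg
RPS27A: taaggagtgacacacaagacccagactctt
KMT2D: gggcgggatccctccgccgctccgctccaa
CREBBP: CTTTCTTTtttttttaattgaggaatcaac
The stretches of RPS29, RPS27A and KMT2D hold no CTTT, and that of CREBBP holds it ahead of the window counted next. CTTT on the gene's strand between 10 bases before and 20 bases after the start was found in 42 of the 63 ribosomal protein promoters at hand (66.7%), against 2 of 38 for oxidative phosphorylation (5.26%), 1 of 19 for chromatin regulators (5.26%) and 12.1% of all 27305 promoters. On the other strand the ribosomal protein share was 4.76%, against 9.80% of all promoters. The match describes the list, and its relation to the size of the change was not tested.

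Genes of oxidative phosphorylation, which encode the respiratory chain and ATP synthase, followed the ribosomal proteins. Of 58 tested, 46 were higher and 0 lower with 8 libraries, and 32 higher and 0 lower with 9. The list's median log2 change was 1.08 with 8 libraries and 0.78 with 9, and 0.52 or more under the other scalings. Without any 1 of the 3 untreated libraries 19 were higher, and in the 42-library fit 15 of 59. COX7A2, a cytochrome c oxidase subunit, had 293, 202 and 612 rescaled TPM at 8 h, against 109, 83.7 and 107 in untreated cells (log2 change 1.73, SE 0.38, adjusted p = 0.0123). SDHD, a membrane anchor of succinate dehydrogenase, had 52.6, 67.4 and 121 at 8 h and 25.1, 23.3 and 19.1 in untreated cells (log2 change 1.71, adjusted p = 0.00797). The 12 members that did not pass with 8 libraries included NDUFV1 and SDHA, core catalytic subunits of complexes I and II.

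Chromatin regulators moved the other way. The list holds histone methyltransferases, acetyltransferases and remodelers, most of them encoded by long genes. In the 8-library fit 18 of 24 were lower and 0 higher, in the 9-library fit 19 were lower and 0 higher, and the median log2 change was -1.10 with 8 libraries and -1.69 with 9. It was -1.94 with TPM as deposited and negative under every scaling, and without untreated replicate 2 the count was 11 lower. The fit of 42 libraries called 17 of 24 lower, and that of all 54 libraries 1. KMT2D, a histone H3 methyltransferase, had 2.56, 3.23 and 0.841 rescaled TPM at 8 h, against 18.3, 21.2 and 17.7 in untreated cells (log2 change -2.72, SE 0.42, adjusted p = 0.00287). CREBBP, a histone acetyltransferase, had 5.47, 2.71 and 5.46 at 8 h and 27, 28.8 and 32.5 in untreated cells (log2 change -2.50, adjusted p = 0.00245). KMT2A had 11.1, 3.02 and 11.6 at 8 h and 44.2, 46.1 and 41.1 in untreated cells. No 8 h value of these 3 genes reached the lowest untreated value, as in 27.8% of all genes tested.

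Some nuclear long noncoding RNAs fell as well. Of the 15 tested in this list, 5 were lower in each fit, and 1 was higher with 8 libraries and 0 with 9. The share lower is near that of all long noncoding RNA genes tested, 33.3% with 8 libraries and 33.9% with 9. MALAT1, an abundant RNA of nuclear speckles, had 174, 83.5 and 219 rescaled TPM at 8 h, against 1247, 1296 and 1096 in untreated cells, a log2 change of -3.03 (SE 0.33, adjusted p = 0.000839) and -2.51 with 8 libraries. NEAT1, the scaffold of paraspeckles, had 5.42, 7.04 and 3.58 at 8 h and 71.2, 80.9 and 51.8 in untreated cells, a log2 change of -3.46 (SE 0.35, adjusted p = 0.000622). LINC-PINT, a p53-linked noncoding RNA, had 3.27, 0 and 2.91 at 8 h and 15.6, 16.8 and 10.3 in untreated cells. KCNQ1OT1, another of the 5, is antisense to KCNQ1, and reads of the pair cannot be told apart without knowing the strand setting. SON, a speckle protein, had 34.4, 29 and 30.4 at 8 h and 142, 149.9 and 143 in untreated cells (log2 change -2.18, SE 0.18, adjusted p = 0.00046).

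Host genes of small nucleolar RNAs give spliced noncoding RNAs that are mostly degraded in the cytoplasm during translation. With 8 libraries 6 of 18 were higher and 1 lower, and with 9 libraries 2 were higher and 0 lower, although the list's median was 0.46 with 8 libraries and -0.72 with 9. ZFAS1 had 672, 917 and 1549 rescaled TPM at 8 h, against 351, 380.2 and 318 in untreated cells (log2 change 1.49, SE 0.28, adjusted p = 0.00658). SNHG5 had 1178, 1003 and 1987 at 8 h and 720.2, 749.7 and 439 in untreated cells (log2 change 1.10, adjusted p = 0.0284). Of the splicing kinases and SR proteins, 5 of 26 were higher and 4 lower with 8 libraries, where 12.2% of all genes were higher and 17.7% lower. SRSF1, SRSF3 and SRSF7 were among the higher and SON, NKTR and PNISR among the lower.

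The direction of change went with gene class, length and position. With 8 libraries, 33.3% of 661 long noncoding RNA genes and 32.6% of 310 pseudogenes were lower, against 15.8% of 12722 protein-coding genes. Protein-coding genes lying within another gene on the opposite strand were lower in 44.5% of 418 cases, those within another gene on the same strand in 14.5% of 228, and those not nested in 14.9% of 12076. Transcript length here is the median over all transcripts annotated for a gene, short ones included, and is not that of the message expressed. HSPD1, for example, counts as 681 bases. By this length, 18.9% of protein-coding genes up to 746 bases were higher and 13.4% lower, against 6.58% higher and 20.4% lower among those over 1962 bases, the outer parts of 4 equal groups. The same order held among multi-exon genes that are not nested, with 18.6% higher in the shortest group and 6.84% in the longest. The median of this annotated length was 834 bases for the higher protein-coding genes, 1334 for the lower and 1051.25 for all tested. Genes that reached the filter of 1 TPM only with the untreated libraries are among these, and their direction was fixed by the filter. Examples are COX7A1, PPP1R17 and CDHR5 above and ZNF750 below. The part of RNA quality, degradation or DNA in these libraries was not tested.

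**Figure D3:**
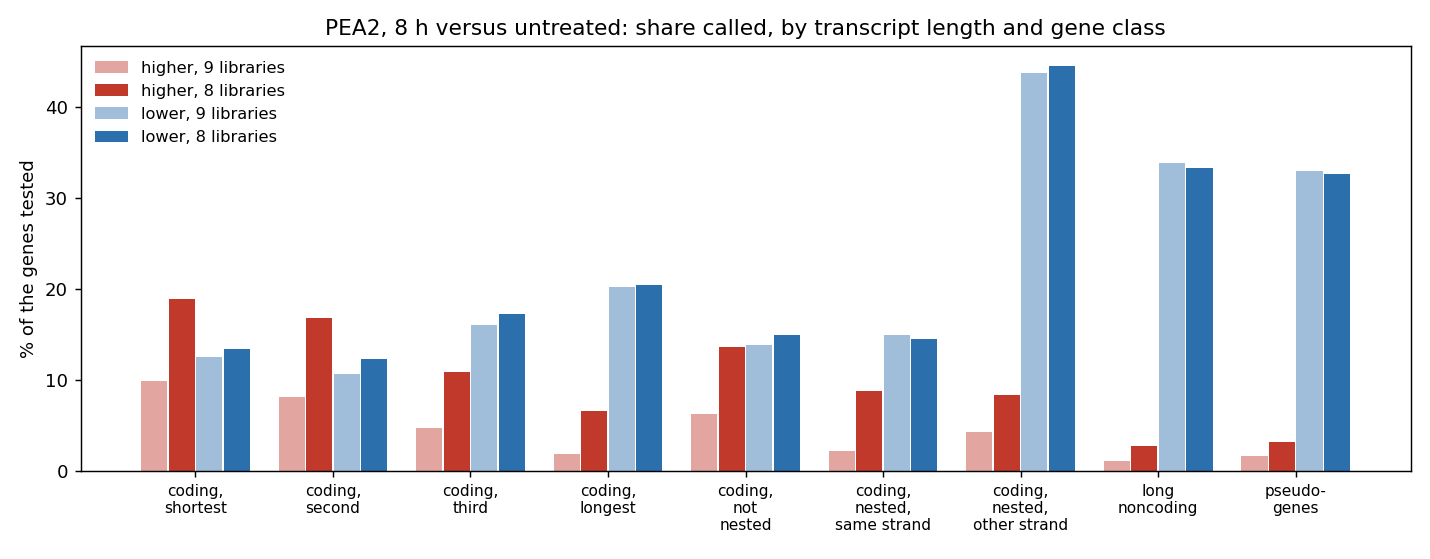
Share of tested genes called higher (red) and lower (blue) at 8 h, in percent, in 4 equal groups by median transcript length, by nesting within another gene and by gene class; pale bars are the 9-library fit and full bars the 8-library fit. Lower calls reach 44.5% of coding genes nested on the opposite strand, and higher calls drop with the median length of a gene's annotated transcripts.

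Transcription factor genes show both kinds of position. ZNF750, an epithelial differentiation factor that lies within TBCD on the opposite strand, had 0.306, 0 and 0.146 rescaled TPM at 8 h, against 28.9, 24.2 and 47.1 in untreated cells. ZFHX3, a zinc finger homeobox factor that is not nested, had 5.46, 3.70 and 3.98 at 8 h and 35.2, 39.3 and 43.7 in untreated cells (log2 change -2.92, SE 0.34, adjusted p = 0.00102).

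**Figure D4:**
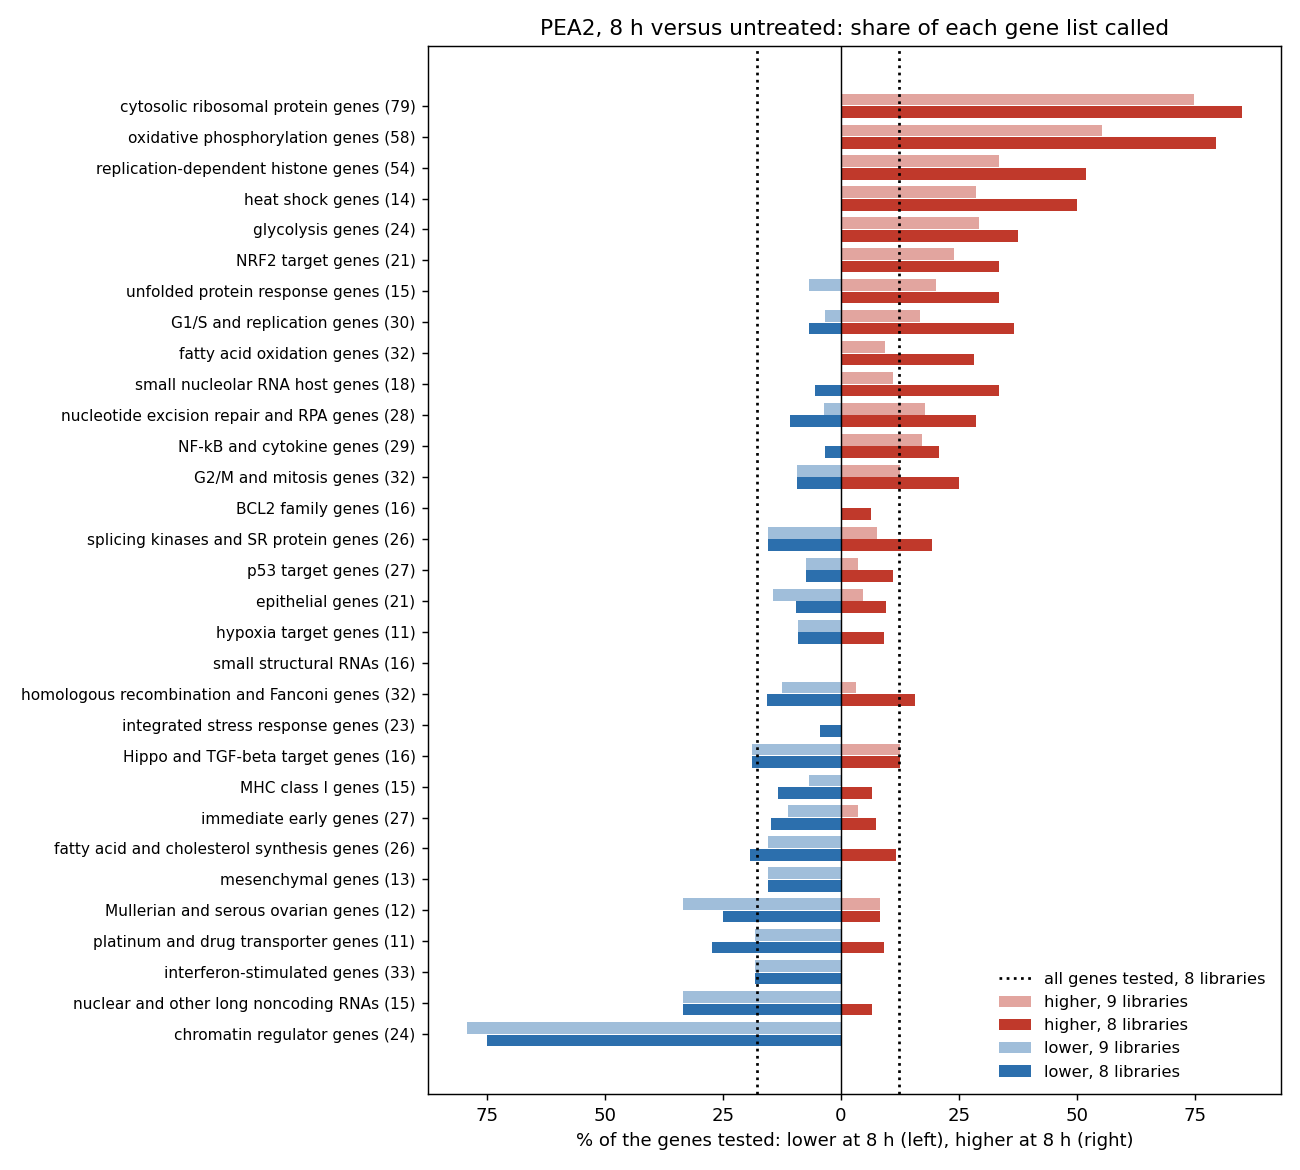
Percent of the tested members of each gene list called lower (blue, to the left) and higher (red, to the right) at 8 h, with the number tested in brackets; pale bars are the 9-library fit, full bars the 8-library fit, and dotted lines the shares of all genes in the 8-library fit, 17.7% lower and 12.2% higher. Ribosomal protein and oxidative phosphorylation genes stand at the top and chromatin regulators at the bottom.

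Cell cycle genes split. Of 30 genes of G1/S and DNA replication, 11 were higher and 2 lower with 8 libraries, and 5 higher and 1 lower with 9. The shares of all genes were 12.2% higher and 17.7% lower with 8 libraries, and 5.56% and 17% with 9. With TPM as deposited, 4 of the list were higher and 2 lower with 9 libraries, and 3 higher and 3 lower with 8. PCNA, the sliding clamp of replication and repair, had 362, 293 and 644 rescaled TPM at 8 h, against 184, 153 and 191 in untreated cells (log2 change 1.22, SE 0.27, adjusted p = 0.0119). GINS2, a subunit of the replicative helicase, and UNG, the uracil DNA glycosylase, rose by 1.16 and 1.08 on the log2 scale. CDT1, a replication licensing factor, went the other way with 28.0, 16.6 and 19.3 at 8 h, against 54.9, 61.1 and 70.7 in untreated cells (log2 change -1.53, SE 0.23, adjusted p = 0.00282). All 3 libraries at 8 h lay outside the untreated range in each of these. Of all genes tested, 10.7% lay above it and 27.8% below it in this way.

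Of 32 G2/M and mitosis genes, 8 were higher and 3 lower with 8 libraries, and 4 higher and 3 lower with 9, and their median turned from positive to -0.10 with TPM as deposited. On that scale 1 was higher and 5 lower with 9 libraries, and 1 higher and 6 lower with 8. Of all genes, 12.2% were higher and 17.7% lower in the 8-library fit, and 5.56% and 17% in the 9-library fit. MKI67, the Ki-67 proliferation antigen, had 91.3, 49.7 and 61.8 rescaled TPM at 8 h, against 426, 415 and 472 in untreated cells (log2 change -2.72, SE 0.23, adjusted p = 0.00046). CDK1, the mitotic kinase, had 185, 189.7 and 328 at 8 h and 131, 122 and 90.3 in untreated cells (log2 change 0.99, SE 0.24, adjusted p = 0.0184). CDC25B, a phosphatase that activates CDK1, fell by 1.81. The Ki-67 message thus fell while that of CDK1 rose in the same libraries. Replication-dependent histone genes, whose messages peak in S phase, were higher in 28 of 54 with 8 libraries and 18 of 54 with 9, with 0 lower, a median of 0.82 and 0.68, and a positive median under every scaling; without untreated replicate 1 or 2 the count was 12. It was 3 of 55 in the 42-library fit and 0 of 55 with all 54 libraries. HIST1H4C had 1406, 1537 and 1701 at 8 h and 729.6, 483 and 981 in untreated cells, but histone genes are near-identical copies and their reads may be shared.

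Of the DNA repair genes, 5 of 32 in the homologous recombination and Fanconi list were higher and 5 lower with 8 libraries, and 1 higher and 4 lower with 9, shares near the 12.2% and 17.7% of all genes with 8 libraries. UBE2T, the ubiquitin-conjugating enzyme of the Fanconi pathway, had 142, 78.2 and 254 rescaled TPM at 8 h, against 67.6, 52.4 and 63.1 in untreated cells (log2 change 1.21, SE 0.35, adjusted p = 0.0373). FANCA, a subunit of the Fanconi core complex, had 17.8, 2.65 and 13 at 8 h and 50.1, 52.4 and 71.4 in untreated cells (log2 change -2.56, adjusted p = 0.0104). FANCC, another subunit, had 6.32, 4.17 and 9.13 at 8 h and 28.8, 42.2 and 41.1 in untreated cells (log2 change -2.38, adjusted p = 0.00246). XRCC3, a factor of homologous recombination, fell by 1.98. In the nucleotide excision repair list 8 of 28 were higher and 3 lower with 8 libraries, and 5 higher and 1 lower with 9. RPA3, the small subunit of the single-strand DNA binding protein, had 50.4, 44.0 and 96.2 at 8 h and 19.3, 18.8 and 17.9 in untreated cells (log2 change 1.63, SE 0.30, adjusted p = 0.00653), and CETN2, a centrin that works with XPC, rose by 1.02.

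Few p53 target genes were called. Of 27 tested, 3 were higher and 2 lower with 8 libraries and 1 higher and 2 lower with 9, shares near or under those of all genes. FAS, the death receptor, had 27.3, 39.5 and 53.5 rescaled TPM at 8 h, against 17.4, 12.3 and 19.5 in untreated cells (log2 change 1.21, SE 0.30, adjusted p = 0.0194). CDKN1A, the cyclin-dependent kinase inhibitor p21, had 13.7, 0 and 12.7 at 8 h and 6.96, 6.79 and 4.89 in untreated cells. Its log2 change was -0.29 (adjusted p = 0.844) in the 9-library fit and 1.09 (SE 0.31, adjusted p = 0.0281) in the 8-library fit, so the 8 h replicate 2 library decides its direction. MDM2, the ubiquitin ligase of p53, had 21.9, 25.0 and 33.6 at 8 h and 22.4, 21.6 and 19.9 in untreated cells and was not called in either fit (log2 change 0.30, adjusted p = 0.414, 9 libraries). TP53INP1 had 4.05, 4.64 and 3.85 at 8 h and 34.6, 32.1 and 77.7 in untreated cells (log2 change -3.13, adjusted p = 0.0020), and it lies within NDUFAF6 on the opposite strand. POLH, the translesion polymerase eta that bypasses platinum adducts, had 12.2, 3.75 and 10.8 at 8 h and 41.7, 41.8 and 42 in untreated cells (log2 change -2.25, adjusted p = 0.00483). Both fell without overlap of the groups, as 27.8% of all genes tested did.

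In the integrated stress response list 0 of 23 were higher in either fit, and 1 was lower with 8 libraries. Of all genes, 12.2% were higher and 17.7% lower with 8 libraries, and 5.56% and 17% with 9, which holds for the next lists too. ATF3, a stress-induced transcription factor, had 11.3, 0 and 11.8 rescaled TPM at 8 h and 20.7, 14.0 and 12.7 in untreated cells, and GDF15, a stress cytokine, had 47.1, 83.3 and 39.1 at 8 h and 39.5, 70.9 and 43.6 in untreated cells. Neither was called (adjusted p = 0.211 and 0.855, 9 libraries). Of 14 heat shock genes, 7 were higher with 8 libraries and 4 with 9, with 0 lower, and with TPM as deposited and 9 libraries 3 were higher and 1 lower; the list's median was positive under every scaling. HSPA8, the constitutive HSP70 chaperone, had 2828, 2441 and 3250 at 8 h and 1382, 1381 and 1176 in untreated cells (log2 change 1.11, SE 0.16, adjusted p = 0.00246). Its co-chaperone DNAJA1 had 656, 641 and 718 at 8 h and 316, 295 and 318 in untreated cells (log2 change 1.11, SE 0.14, adjusted p = 0.00131). The mitochondrial chaperonins HSPE1 and HSPD1 rose by 1.57 and 0.70 on the log2 scale. In the annotation HSPE1 lies within HSPD1 on the opposite strand, and reads of the pair cannot be told apart without knowing the strand setting. Of 15 unfolded protein response genes, 5 were higher and 0 lower with 8 libraries and 3 higher and 1 lower with 9. Among the higher was PDIA6, a disulfide isomerase of the endoplasmic reticulum (log2 change 0.89, adjusted p = 0.00747). HSPA5, the HSP70 chaperone of the endoplasmic reticulum, had 98.8, 53.7 and 76.9 at 8 h and 171, 256 and 119 in untreated cells and was the 1 called lower with 9 libraries (log2 change -1.21, adjusted p = 0.0358), though not with 8 (adjusted p = 0.0967). With TPM as deposited, 1 unfolded protein response gene was higher and 1 lower with 9 libraries, and likewise with 8. The list's median was then -0.07 with 9 libraries and 0.03 with 8.

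A few NF-kB and cytokine genes rose while most of the list did not pass. Of 29 tested, 6 were higher and 1 lower with 8 libraries and 5 higher and 0 lower with 9, and the list's median was 0.31 with 8 libraries and -0.48 with 9. Without untreated replicate 1 or 2 or 8 h replicate 3, 2 were higher. The shares of all genes were 12.2% higher and 17.7% lower with 8 libraries, and 5.56% and 17% with 9. With TPM as deposited, 1 of the list was higher and 3 lower with 9 libraries, and 2 higher and 4 lower with 8. CXCL8, the neutrophil attractant interleukin 8, had 212, 155 and 431 rescaled TPM at 8 h, against 82.9, 90.4 and 56.5 in untreated cells, a log2 change of 1.67 (SE 0.36, adjusted p = 0.0117) and 2.11 with 8 libraries. IL6 had 164, 169 and 147 at 8 h and 76.8, 90.8 and 75.5 in untreated cells (log2 change 0.98, SE 0.21, adjusted p = 0.0117). CSF2, the cytokine GM-CSF, had 73.3, 44.1 and 77.6 at 8 h and 34.7, 35.7 and 24.9 in untreated cells (log2 change 0.99, SE 0.28, adjusted p = 0.0320). The groups did not overlap for any of these, as in the 10.7% of all genes tested with 8 h above. At 24 h all 3 cytokines were above the untreated range too, IL6 at 337, 216 and 198. IL1B and the feedback inhibitor NFKBIA were also called higher in both fits. BIRC3, an inhibitor of apoptosis, had 45.8, 18.6 and 75.9 at 8 h and 39.7, 29.8 and 27 in untreated cells and was called with 8 libraries only (log2 change 0.99, adjusted p = 0.0233).

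NF-kB binds decameric kB elements in the promoters of these genes, and the stretches of promoter that hold such letters are shown for 3 cytokines that rose and for BIRC3. They are from RefSeq on GRCh38.p14, plus strand, 5′ to 3′, with the match in capitals, at chr4:73740466-73740498 for CXCL8, chr7:22727116-22727148 for IL6, chr5:132073675-132073707 for CSF2 and chr11:102317273-102317305 for BIRC3. The first base of the match lies at -91, -72, -102 and -199 relative to the start.
CXCL8: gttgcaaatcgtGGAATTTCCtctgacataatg
IL6: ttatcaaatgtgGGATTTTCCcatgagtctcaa
CSF2: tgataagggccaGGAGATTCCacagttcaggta
BIRC3: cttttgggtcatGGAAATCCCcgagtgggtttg
The letters searched were GGNNNTTCC on either strand, in windows from 250 bases before to 50 after the start, a pattern read on the opposite strand in BIRC3. It was found in 17 of 23 promoters of the list (73.9%), in 5 of the 6 genes higher with 8 libraries, IL1B being the one without it, and in 20.1% of all 27305 promoters. It marks list members that did not change as well.

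Interferon-stimulated genes did not follow the cytokines. Of 33 tested, 0 were higher and 6 lower in each fit, a share near that of all genes. IRF7, a transcription factor of the interferon response, had 6.52, 9.91 and 3.58 rescaled TPM at 8 h, against 37.7, 45.0 and 46.4 in untreated cells (log2 change -2.60, SE 0.39, adjusted p = 0.0025). XAF1 had 8.02, 0 and 6.71 at 8 h and 29.5, 41.5 and 15.8 in untreated cells, and OAS1, a sensor of double-stranded RNA, fell by 2.23. B2M, the light chain of MHC class I, had 1008, 534 and 2589 at 8 h and 602, 475 and 488 in untreated cells, and was called with 8 libraries only (log2 change 1.75, adjusted p = 0.00983). The 3 values of B2M at 8 h were widely spread.

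In metabolism, some enzymes of fatty acid breakdown rose. Of 32 fatty acid oxidation genes, 9 were higher and 0 lower with 8 libraries and 3 higher and 0 lower with 9, and the list's median was 0.36 with 8 libraries and -0.12 with 9. Of all genes, 12.2% were higher with 8 libraries and 5.56% with 9. With TPM as deposited, 1 of the list was higher and 0 lower with 9 libraries, and 2 higher and 2 lower with 8. ACAA2, a thiolase of mitochondrial beta oxidation, had 36.4, 43.6 and 45.7 rescaled TPM at 8 h, against 16.6, 20.8 and 16.5 in untreated cells (log2 change 1.18, adjusted p = 0.0065). HADHB, a subunit of the trifunctional protein of the same pathway, had 30.6, 25.8 and 42.6 at 8 h and 16.3, 13.4 and 17.5 in untreated cells (log2 change 1.00, adjusted p = 0.0236). CPT1A, the rate-limiting carnitine palmitoyltransferase, had 13.3, 38.7 and 9.54 at 8 h and 6.34, 6.63 and 14.9 in untreated cells. It was not called in either fit, with a log2 change of 0.92 (SE 0.54, adjusted p = 0.253) with 9 libraries and 0.46 (SE 0.39, adjusted p = 0.399) with 8, and its groups overlapped. FASN, fatty acid synthase, had 23.4, 23.1 and 13.5 at 8 h and 50.0, 50.8 and 48.0 in untreated cells (log2 change -1.31, SE 0.28, adjusted p = 0.0115). SREBF1, the factor that drives lipid synthesis genes, had 8.17, 6.80 and 5.01 at 8 h and 17.4, 17.9 and 24.5 in untreated cells (log2 change -1.46, adjusted p = 0.0158). In the synthesis list 3 of 26 were higher and 5 lower with 8 libraries, and 0 higher and 4 lower with 9, where 17.7% and 17% of all genes were lower.

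Glycolysis genes were higher in 9 of 24 cases with 8 libraries and 7 with 9, with 0 lower, although the list's median was -0.17 with TPM as deposited and 8 libraries. On that scale 2 were higher and 2 lower with 9 libraries, and 2 higher and 1 lower with 8. Of all genes, 12.2% were higher in the 8-library fit and 5.56% in the 9-library fit. PGK1 had 243, 229 and 281 rescaled TPM at 8 h, against 124, 129.6 and 151 in untreated cells (log2 change 0.89, SE 0.15, adjusted p = 0.0037), and LDHB, a lactate dehydrogenase subunit, rose by 1.02. NRF2 targets, which defend against oxidants, were higher in 7 of 21 cases with 8 libraries and 5 with 9, with 0 lower. With TPM as deposited, 4 were higher and 2 lower with 9 libraries, and 4 higher and 0 lower with 8. SRXN1, sulfiredoxin, had 68.5, 72.6 and 72.2 at 8 h and 34.6, 27.4 and 32.5 in untreated cells (log2 change 1.16, SE 0.18, adjusted p = 0.00272), with little spread within either group. NQO1, a quinone reductase, had 122, 123 and 136 at 8 h and 58.2, 73.7 and 66.6 in untreated cells (log2 change 0.94, adjusted p = 0.00673), and FTL, the ferritin light chain, rose by 1.04.

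Genes of drug handling showed little. None of 7 metallothionein genes tested was called in either fit, with 0 of 7 at adjusted p under 0.05. Of 11 platinum and drug transporters, 1 was higher and 3 lower with 8 libraries and 0 higher and 2 lower with 9. Of all genes, 12.2% were higher and 17.7% lower with 8 libraries, and 5.56% and 17% with 9. ABCC1, an export pump for glutathione conjugates, had 10.6, 6.60 and 10.9 rescaled TPM at 8 h, against 28.7, 36.0 and 27.8 in untreated cells (log2 change -1.64, SE 0.30, adjusted p = 0.00597), and ABCC3, a related pump, fell by 1.49. SLC31A2, a copper transporter related to the platinum importer, was called with 8 libraries only (log2 change -1.58, adjusted p = 0.0231). Of the BCL2 family, 0 of 16 were called with 9 libraries and 1, BNIP3L, was higher with 8.

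Identity genes moved in both directions. MUC16, which encodes the tumor antigen CA125, had 1.05, 0 and 1.03 rescaled TPM at 8 h, against 25.0, 24.7 and 21.0 in untreated cells (log2 change -3.93, SE 0.41, adjusted p = 0.000712). It reached the filter only with the untreated libraries, so its direction was fixed by the filter. PAX8, the lineage factor of Müllerian epithelium, had 43.6, 59.9 and 37.8 at 8 h and 87.2, 108 and 115 in untreated cells (log2 change -1.14, adjusted p = 0.0110). WFDC2, which encodes the serum marker HE4, went up, with 100.3, 308 and 118 at 8 h and 63.7, 41.8 and 75.4 in untreated cells (log2 change 1.38, adjusted p = 0.0338). MUC1 was listed at 0 in all libraries at 8 h and at 7.43, 2.62 and 19.3 in untreated cells. Of 16 Hippo and TGF-beta targets, 2 were higher and 3 lower in each fit, shares near those of all genes with 8 libraries. Among them CYR61 had 178, 83.2 and 111 rescaled TPM at 8 h and 324, 408 and 289 in untreated cells, and fell. ANKRD1, with 1019, 764 and 1089.6 at 8 h and 488, 533 and 512 in untreated cells, rose by 0.89 on the log2 scale.

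The levels at 8 h and 24 h were set against each other directly, a comparison that needs no untreated library. Same-numbered 8 h and 24 h cultures were at the same passage, 25, 26 or 27, and the fit does not pair them. The deviations of such libraries had r of -0.018, -0.070 and -0.206 over 14141 genes. In the 9-library fit 0 of 15064 genes (0%) were called between 24 h and 8 h, with 508 at an unadjusted p under 0.05, and in the 8-library fit 1 gene of 15044 (0.00665%) was called, the small Cajal body RNA SCARNA8, with 562 at an unadjusted p under 0.05. Without 8 h replicate 3 the count was 5. SCARNA8 had 70.8, 0 and 69.7 rescaled TPM at 8 h and was listed at 0 at 24 h and in untreated cells, and it was chosen after its values were seen. TNFRSF11B had 5.97, 7.79 and 21.5 at 24 h, MALAT1 had 112, 178 and 118, and RPS13 had 1729, 2434 and 1229.7. The values of these 3 genes at 24 h thus lay in or near their 8 h range and outside the untreated range. That few genes passed does not show that the 2 times are alike.

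Whether the PEA2 changes differed from those of other lines was tested against the mean 8 h change of PEO1, PEO4 and PEO14 in the 42 libraries of the series with at least 12000 genes. The labels call PEO4 resistant, like PEA2, and PEO1 and PEO14 sensitive, so this mean mixes both kinds. PEA1, the partner of PEA2, and PEO23 were left out of the mean because most of their untreated libraries list few genes. The PEA2 change was higher for 478 of 18709 genes (2.55%) and lower for 306 (1.64%), 4.19% in all, with 4091 at an unadjusted p under 0.05. Leaving out a single PEA2 library moved these counts, to 73 and 62 without 8 h replicate 1, 131 and 100 without 8 h replicate 3, and 232 to 314 and 166 to 202 without an untreated one. Several gene lists that moved in PEA2 moved further in these lines. The median log2 change of ribosomal protein genes was 0.99 in PEA2, 2.52 in PEO1, 3.07 in PEO4 and 1.54 in PEO14, and 16 of 79 had a lower change in PEA2 and 0 a higher one. For oxidative phosphorylation genes it was 1.03 in PEA2, against 2.55, 3.29 and 1.24 in PEO1, PEO4 and PEO14, with 12 of 59 lower in PEA2 and 0 higher. Chromatin regulators had -1.10 in PEA2, against -2.25, -2.69 and -1.60, with 3 of 24 higher in PEA2, that is, with a smaller fall, and 0 lower. These calls rest on few libraries: without 8 h replicate 1, 0 ribosomal protein, 1 oxidative phosphorylation and 0 chromatin regulator genes passed, while the medians of the differences kept their signs in each setting tried.

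**Figure D5:**
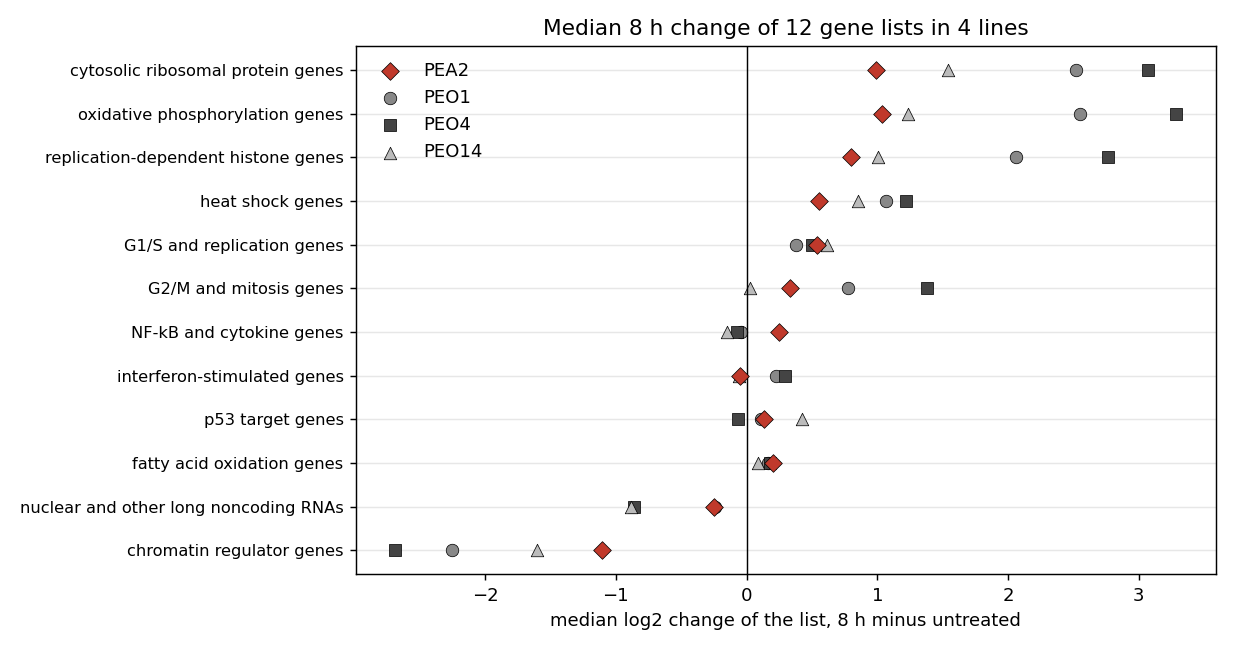
Median log2 change (8 h minus untreated) of 12 gene lists in PEA2 (diamonds), PEO1 (circles), PEO4 (squares) and PEO14 (triangles), from the fit of the 42 libraries with at least 12000 genes. PEA2 lies closest to 0 for ribosomal protein, oxidative phosphorylation, histone, heat shock and chromatin regulator genes; G1/S and fatty acid oxidation lists lie close together in all 4 lines.

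Single genes showed the same. MKI67 changed by -2.42 in PEA2, against -3.87, -4.45 and -3.33 in PEO1, PEO4 and PEO14, and NEAT1 by -3.47, against -6.09, -5.11 and -5.61. Untreated NEAT1 was between 36.2 and 56.8 rescaled TPM in PEA2 and at least 77.0 in those lines. RPS3A changed by 1.70 in PEA2, against 4.42, 5.45 and 2.41. Other changes went beyond those lines: RFX7 fell by 4.49 in PEA2, against changes of -2.91, -2.14 and -1.81. Untreated RFX7 was at least 97.5 rescaled TPM in PEA2 and no higher than 28.6 in those lines. TNFRSF11B fell by 4.50 in PEA2, while its change was -0.27 in PEO1, 2.23 in PEO4 and 0.52 in PEO14. On the scale of this fit its level in untreated cells was between 221 and 345 rescaled TPM in PEA2 and no higher than 14.5 in the other 3 lines. PPP1R17 was at 0 in all libraries of those lines, and KYNU in all of PEO1 and PEO4, so no fold can be set against them. CXCL8 rose in all 4 lines, by 2.09 in PEA2 and by 4.11, 3.69 and 2.68 in the others, and the difference did not pass (adjusted p = 0.123). Untreated CXCL8 was between 39.5 and 63.6 rescaled TPM in PEA2, no higher than 2.19 in PEO1 and 0.45 in PEO14, and 0 in PEO4. At 8 h it was between 161 and 324 in PEA2 and no higher than 83.1 in the others. The rises in the other lines thus start near 0, and their size cannot be set against that of PEA2.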

How the data were processed

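Total RNA of 54 cultures was sequenced as read pairs from a stranded total RNA kit, per the labels' protocols. The authors deposited 1 table of TPM per gene, named for RSEM; how reads were aligned, annotated and assigned to strands is not stated in the labels or headers. The submitters' processing notes name bcl2fastq 2.18 and the build hg19. Each PEA2 library was divided by its median ratio to the geometric mean, taken from the 9021 genes above 0 in all 9 PEA2 libraries (12600 in 8), and log2(rescaled TPM + 1) was tested with limma 3.58.1 in R 4.3.3 (empirical Bayes with a trend, Benjamini-Hochberg over all genes reaching 1 TPM in 2 or more libraries). No 2 libraries were identical. The labels speak of repeats on different days, and p-values measure the spread between these cultures. Gene classes, lengths and nesting come from GENCODE on GRCh38, matched by symbol for 22677 of 25435 genes; no coordinates were carried between builds. The fit was checked on simulated data.

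Genes were named by a rule: the 15 largest rises and falls called in both fits, with a group mean of at least 10 rescaled TPM and no overlap, replacing antisense genes, near-identical copies and symbols turned into dates, plus up to 4 members of each list and a few fixed genes. The comparison, lists and rules were chosen with earlier results of these data known. Alternatives covered scaling, pseudocount, filter, libraries and a replicate block. Some items are not reported here.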

Additional observations from a re-analysis of the deposited data

Results flagged for a closer look

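The 8 h change of 17 genes differed between PEA2 and the mean of PEO1, PEO4 and PEO14 in the contrast of changes (limma, 42 libraries with at least 12000 genes, adjusted p under 0.05); groups of 3 are too small for a test of single outlying libraries. Differences are log2 changes of PEA2 minus the mean change of the other lines. The change of TNFRSF11B differed by -5.32 (adjusted p = 8.56e-07), that of PPP1R17 by -4.40, LINC00645 by -2.66, TSHZ2 by -2.21 and RFX7 by -2.20. For TNFRSF11B, TSHZ2 and RFX7 the PEA2 fall was deeper than the change of each other line. Untreated TSHZ2 was at or below 0.27 rescaled TPM in PEO1 and between 2.38 and 8.40 in PEO4, which left little room to fall. In PEO14, with 13.8 to 26.9 in untreated cells, it changed by -3.42, against -4.16 in PEA2. KYNU differed by 1.81. PPP1R17 was at 0 in all libraries of the other lines and KYNU in all of PEO1 and PEO4, and at no more than 2.42 rescaled TPM in PEO14, so that no fold can be set against them. LINC00645 changed by -4.38 in PEA2 and by -4.87 in PEO14, and was at or below 1.05 rescaled TPM in PEO1 and PEO4.

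Rises that were smaller in PEA2 than the mean of the other lines were those of RPS3A, with a difference of -2.40, SNHG5 with -2.33, CDK1 with -1.67, PGK1 with -1.33 and HSPA8 with -1.20. Untreated SNHG5 was at least 306.8 rescaled TPM in PEA2 and no higher than 236.1 in the other lines. In the same way CDK1 was at least 63.15 against 50.35, and HSPA8 at least 822.4 against 756.8. For RPS3A and PGK1 the untreated ranges overlapped. CDK1 and HSPA8 changed by 1.21 and 1.31 in PEA2 and by 1.20 and 1.33 in PEO14, so that these 2 differences come from PEO1 and PEO4. Falls that were smaller in PEA2 were those of FANCC, with 2.27, NEAT1 with 2.13, FASN with 1.94, MKI67 with 1.46 and NKTR with 1.26. Untreated FANCC was at 20.5 to 29.6 rescaled TPM in PEA2 and 28 to 300.7 in the other lines. In the same order NEAT1 was at 36.2 to 56.8 and 77.0 to 329.9. FASN was at 33.6 to 35.7 and 137.6 to 642.4, and NKTR at 20.5 to 26.4 and 44.0 to 103.9. MKI67 did not start lower, at 291.5 to 329.9 in PEA2 and 122.6 to 343.2 in the other lines. Whether the lower starts account for the smaller falls was not tested. THY1, a fibroblast marker that was at 0, 0 and 0.202 rescaled TPM at 8 h and at 3.12, 6.08 and 6.40 in untreated PEA2 cells, differed by -1.61. Adjusted p for the differences other than that of TNFRSF11B ran from 9.05e-10 to 0.0441.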

How the results depend on the processing

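Counts of genes higher at 8 h moved with many choices, from 837 to 371 with only the 6 libraries compared, 17 with all 54 libraries and 386 with no rescaling, and to 1833 without libraries under 12000 genes. Leaving out 1 library gave 443 to 1833 genes higher and 1756 to 2668 lower: untreated replicates 1, 2 and 3 left 540, 443 and 488 higher, and only 8 h replicate 2 raised the count. Genes lower, 2555, became 1543 with the 6 libraries, 562 with all 54, and 4019 with no rescaling and without libraries under 12000 genes. A replicate block gave 574 higher and 2070 lower with 9 libraries, and, chosen after seeing the data, 1292 higher and 2134 lower with 8; same-numbered 8 h and untreated libraries did not deviate together (r = 0.029, 0.024 and -0.070 over 14141 genes), so that they share a number only. Genes called between 24 h and 8 h, 0, became 1 without libraries under 12000 genes, with no rescaling of these, with 42 libraries, and in the 2 settings chosen after seeing the data, 3 with all 54, and 0 to 5 when 1 library was left out. The PEA2 difference from the other lines, 478 higher and 306 lower, became 30 and 51 with all 54 libraries, 1401 and 183 with no rescaling, and 193 and 142 with a pseudocount of 0.1; leaving out 1 PEA2 library gave 73 to 314 higher and 62 to 202 lower. The cause of these moves was not tested.

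Of 116 named changes at 8 h, 23 kept their call and direction under every alternative; all 54 libraries ended 83 calls and only the 6 libraries 32. Among these changes 3 genes reversed. BIRC3 ran from -0.11 without 8 h replicate 3 to 0.99 without 8 h replicate 2. CDKN1A, -0.29 in the 9-library fit, ran from -0.95 without 8 h replicate 1 to 1.09 without 8 h replicate 2, and became 0.019 with all 54 libraries, 1.04 with 42, 0.72 with no rescaling of 8, 1.17 with a replicate block in 8 and 0.90 with rescaling of 8 to the total of other genes. GDF15, 0.11 in the 9-library fit, ran from -0.088 without 8 h replicate 2 to 0.36 without untreated replicate 2, and became -0.11 with 42 libraries, -0.15 with no rescaling of 9, -0.50 of 8, -0.12 with the block in 8 and -0.30 with the total in 8. Of 17 named differences from other lines, 2 held throughout. How far depth limits low values was not settled, since read numbers were not given; 8 h replicate 2 lists many genes at 0.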
